A study of Homo sapiens with 34 samples.

Results

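The specific and gelatinase granule genes are LTF, LCN2, CAMP, MMP8, MMP9, PGLYRP1, CEACAM8, CRISP3 and OLFM4, which encode proteins that neutrophils pack into the later classes of their storage granules. Members were taken by name from the deposited expression table, which gave 9 of 20255 genes, each described over all 12 populations of a haematopoietic differentiation. Cells of the human embryonic stem cell line H1 were aggregated into embryoid bodies (EBs), allowed to spread as a flat culture, and differentiated in defined medium with no added haematopoietic cytokine. BMP4 and VEGF started mesoderm formation, and VEGF was the only growth factor left from day 3 on. The labels name no treatment for 1 undifferentiated H1 sample, BMP4+hVEGF for EBs at day 0, and hVEGF for every later sample.

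Cells of days 2 and 4 were collected unsorted. On days 6, 9 and 12 they were sorted into CD43+ and CD43- cells, CD43 being a sialoglycoprotein of the blood cell surface. On day 16 the sort also used CD45, the pan-leukocyte phosphatase, and for brevity its CD43+/CD45+ and CD43-CD45- cells are named CD43+ and CD43- like the earlier ones. Each of the 11 populations from day 0 on had 3 replicates, described by the study as independent, so that with the undifferentiated sample there were 34 samples. All come from 1 cell line, and the replicates measure the spread between differentiations of that line. Sequencing was done at 2 companies, and which sample went to which is not given in the sources used here, so no batch could be placed beside the results.

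The deposited values are tag counts normalized for GC content and rounded. Sorted by size, they were the same in all 34 samples, with 1292 genes listed at 0, a median of 197 and 90700 as the highest value. Each value thus behaves much like a rank, sequencing depth is unknown, and levels can be compared between samples for 1 gene but not between genes, since they are not per length. Differences are given as log2 differences, the difference of the mean of log2(value + 1) between populations, with the standard error (SE) of the limma fit. A gene was called higher or lower at a Benjamini-Hochberg adjusted p below 0.05 and a fold change above 4. Where a population is listed at 0 in all its samples, the log2 difference depends on the added 1 and is not a fold. In sorted or unsorted bulk samples, fewer cells of a type and less RNA per cell cannot be told apart.

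SPN, the gene of CD43, followed the sort, with 2338 to 9460 in the CD43+ samples and 18 to 328 in the CD43- samples. PTPRC, the gene of CD45, was at most 8 in the CD43+ cells of day 6, 634 to 749 on day 9 and 6920 to 15868 on days 12 and 16. In CD43- cells PTPRC reached 371 on day 12 and 42 on day 16.

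Neutrophils fill their granules in a fixed order during maturation. Azurophil granules with myeloperoxidase and elastase form first, in promyelocytes. Specific granules with lactoferrin follow in myelocytes and metamyelocytes, and gelatinase granules in band cells. A protein goes to the granule class that is forming when its gene is transcribed, so that transcripts of these 9 genes mark later steps than those of the azurophil genes. C/EBPε, encoded by CEBPE, is a transcription factor needed for specific granule genes, and C/EBP factors with PU.1 act on many granule gene promoters.

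The promoters of the members were searched for letters of the C/EBP and PU.1 types. Whether a match goes with the course of a gene was not tested. RefSeq promoters on GRCh38.p14 (250 bases before to 50 after a gene start) were found for 7 of the 9 members, 9 promoters in all, since LTF had 3. MMP9 and PGLYRP1 had no entry. The C/EBP-type letters TTNNGNAA, on either strand, stood in 5 of the 9 promoters, from 4 genes, and in 36.8% of all 35116 promoters. Its stricter form TTNNGCAA, which lies within the first, stood in 4 of the 9 and in 10.5% of all. The PU.1-type letters GAGGAA stood in 7 of the 9, all 3 of LTF among them, from 5 genes, and in 27.9% of all. The windows below, 30 bases each and read 5′ to 3′ on the strand of the gene, show the stricter C/EBP-type match nearest to the start in LTF, LCN2, MMP8 and CRISP3 (TTNNGCAA, except that CRISP3 is shown at the match outside its transcribed span) and the GAGGAA match of CAMP, with the match in capitals.
LTF: aggggtgtctaTTGGGCAAcagggcggggc
LCN2: gtccctctgtcTTGCCCAAtcctgaccagg
MMP8: acattataaaaTTGCAAAActgtcagagtg
CRISP3: tctagagttacTTGCACAAccagaatttgc
CAMP: gaagaaaccacTTCCTCatcttgcacacaa
The LTF window is chr3:46464946-46464975, its match beginning 59 bases before the start of 1 of the 3 RefSeq starts, and it overlaps an exon of a longer LTF model in GENCODE v29. The LCN2 window, chr9:128149299-128149328, begins its match 143 bases before the start and lies in an intron of a longer model. MMP8 has its window at chr11:102725039-102725068, 103 bases before the start and likewise intronic in a longer model. The CRISP3 window at chr6:49744439-49744468 (69 bases before) and the CAMP window at chr3:48223291-48223320 (193 bases before) lie outside the genes. In LCN2, MMP8, CRISP3 and CAMP the match reads on the opposite strand of the gene. OLFM4 and CEACAM8 held no TTNNGNAA in these windows, and neither did CAMP. A match is a description of letters and not of binding.

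Most members were higher in CD43+ than in CD43- cells, late in the differentiation. Genes were tested where 3 or more samples held a value of 10 or higher, which 19788 genes met, 8 of the 9 members among them, and MMP8 did not. On day 6, 3 of the 8 were called higher (LTF, LCN2 and CRISP3), where 4.69% of all genes tested were, and on day 9 the 2 called were LTF and LCN2, beside 8.65%. On day 12 the count was 6 of 8, beside 11.8%, without MMP9 and CRISP3. On day 16 it was 7 of 8, beside 12.2%, without MMP9. None was called lower on any of the 4 days, on which 7.85%, 12.8%, 14.4% and 13.6% of all genes were. The median log2 difference over the 8 was 1.10, 1.62, 4.76 and 5.03 on days 6, 9, 12 and 16, and over all genes tested 0.14, 0.24, 0.22 and 0.14. CAMP, PGLYRP1 and CEACAM8 reached a value of 10 only in CD43+ cells of days 12 and 16. They could thus pass the filter only through the cells in which they are high. CRISP3 reached it outside the day 16 CD43+ cells only at 10 on day 4 and 11 in day 6 CD43+ cells. It therefore passed only with the day 16 CD43+ cells, and these counts are a description.

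**Figure D1:**
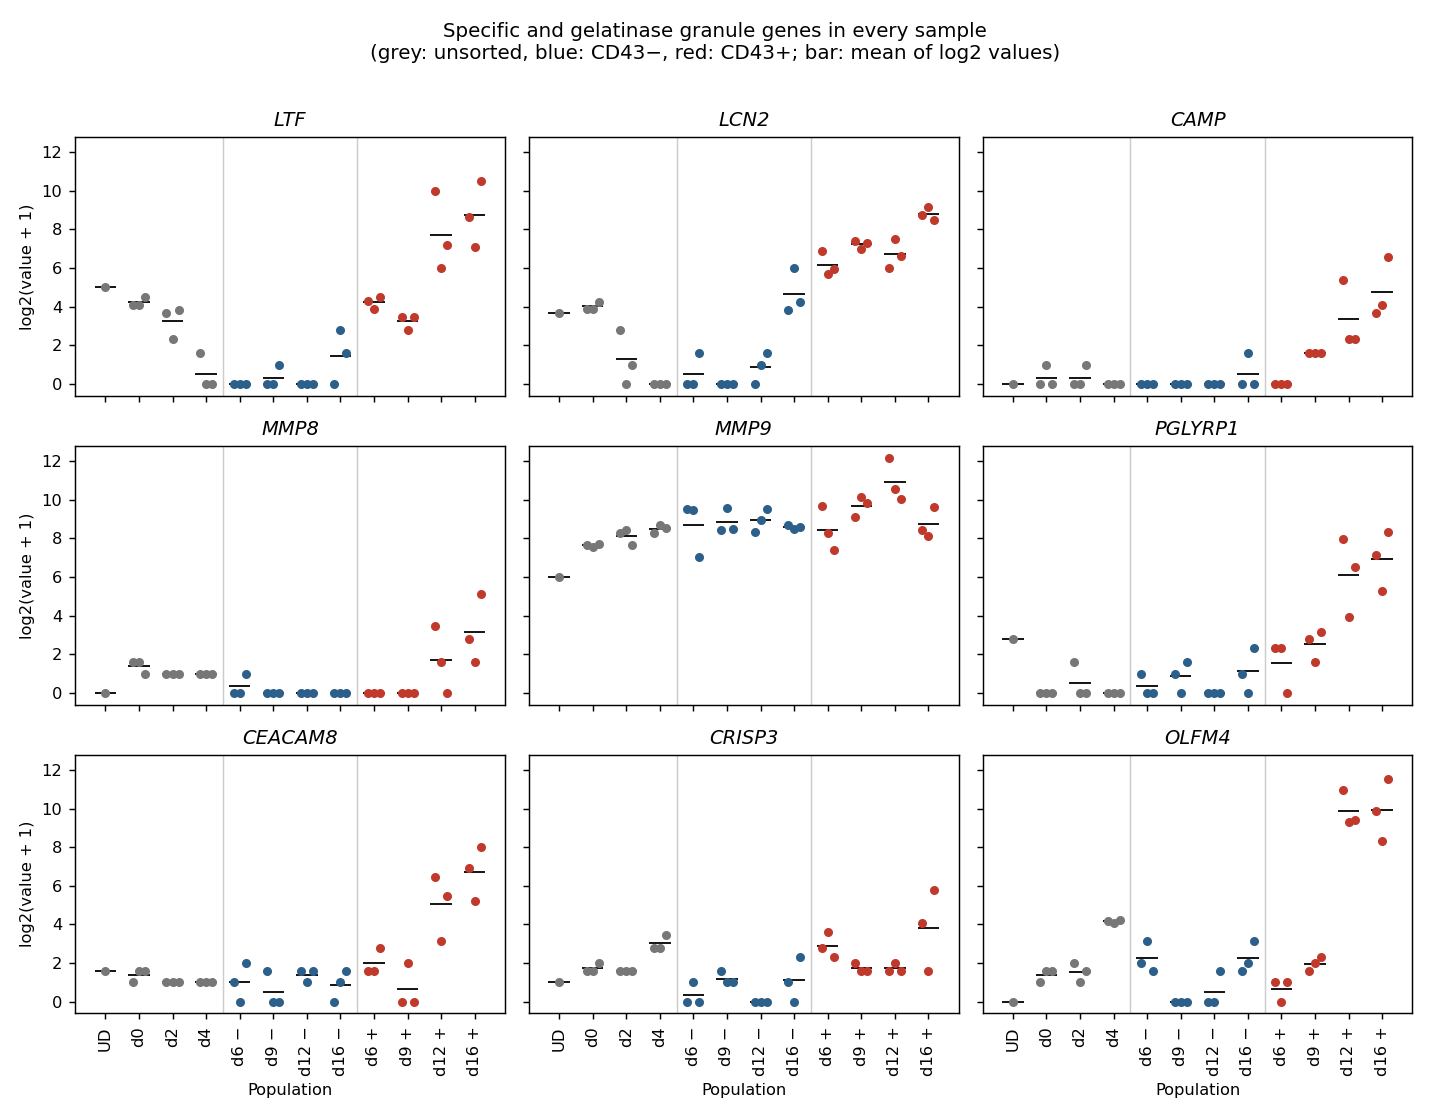
The 9 genes in every sample, as log2(value + 1), with 1 point per sample and a bar at the mean of each population (UD, undifferentiated; d, day; grey unsorted, blue CD43-, red CD43+). OLFM4 lies at 622 or above in every CD43+ sample of day 12 and at 4 or below in every CD43+ sample of day 9, whereas MMP9 lies at 64 or above in all 34 samples.

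LTF encodes lactoferrin, the iron-binding protein that marks specific granules (chr3:46435645-46485234, minus strand). It was 32 in undifferentiated H1 cells and 16, 16 and 22 in day 0 EBs, then 12, 4 and 13 on day 2 and 2, 0 and 0 on day 4. In CD43+ cells it was 19, 14 and 22 on day 6, 10, 6 and 10 on day 9, 1014, 64 and 146 on day 12 and 396, 134 and 1454 on day 16. CD43- cells held 6 or less in all 12 samples and 0 in every sample of days 6 and 12. LTF thus stood above CD43- cells on all 4 days without overlap, and the low value of day 9 did not overlap that of day 6. The log2 difference between CD43+ and CD43- cells was 4.25 (SE 0.78, adjusted p = 5.953e-05) on day 6, 2.91 (adjusted p = 0.001989) on day 9, 7.74 (adjusted p = 1.66e-09) on day 12 and 7.27 (adjusted p = 5.552e-09) on day 16. The day 6 and day 9 calls were lost with 10 added to each value in place of 1. Within the CD43+ cells LTF rose from day 9 to day 12 by 4.49 (adjusted p = 2.354e-05), and from day 12 to day 16 the difference was 1.0 (adjusted p = 0.3189), which became a call, 2.13, without replicate 1 of the day 12 CD43+ cells. Before the sort LTF fell by 2.75 from day 2 to day 4 (adjusted p = 0.00693).

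LRP1, a large endocytic receptor that takes up lactoferrin, also rose in CD43+ cells from day 9 to day 12. It stood at 374, 355 and 440 on day 9 and at 11504, 7630 and 6068 on day 12, a log2 difference of 4.38 (adjusted p = 5.32e-14). Unlike LTF it was present in CD43- cells, where it ranged from 8272 to 15858 on the 4 days, and it was lower in CD43+ cells on days 6 and 9 (-2.43 and -4.93) and not called on days 12 and 16.

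LCN2 encodes lipocalin 2, which withholds iron by binding bacterial siderophores (chr9:128149071-128153455, plus strand). It was 12 in undifferentiated cells, 14, 14 and 18 on day 0, 6, 0 and 1 on day 2, and 0 in all day 4 samples. CD43+ cells held 119, 50 and 60 on day 6, 168, 128 and 158 on day 9, 64, 180 and 99 on day 12, and 429, 568 and 358 on day 16. Every CD43+ sample of days 6, 9 and 12 thus lay at 50 or above, days 9 and 12 overlapped, and day 16 lay above all earlier days. In CD43- cells LCN2 was at most 2 up to day 12 and 13, 63 and 18 on day 16. The log2 difference between the sorted cells was 5.64 (SE 0.59, adjusted p = 1.191e-08) on day 6, 7.24 (adjusted p = 4.061e-11) on day 9, 5.86 (adjusted p = 1.517e-09) on day 12 and 4.11 (adjusted p = 7.711e-07) on day 16. LCN2 had the largest difference of the 8 members tested on day 6, its CD43+ values of day 6 lying at 50 or above beside at most 2 in CD43- cells.

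From day 4 to the CD43+ cells of day 6, LCN2 rose by 6.17 (adjusted p = 2.685e-09) and LTF by 3.72 (adjusted p = 0.0002659), whereas OLFM4 fell by 3.50 (adjusted p = 2.811e-05). With 10 added the LCN2 call stayed and those of LTF (1.40) and OLFM4 (-1.34) were lost. These 3 are the members called, where 14.5% of all genes were called in either direction. Earlier, LCN2 fell by 2.75 from day 0 to day 2 (adjusted p = 0.0005635), the 1 member called beside 7.88% of genes and lost as a call with 10 added. In CD43+ cells from day 12 to day 16, LCN2 rose by 2.07 (SE 0.59, adjusted p = 0.006088). That call was lost without replicate 1 of the day 12 cells (1.72) or replicate 2 of the day 16 cells (1.90), and with 0.1 or 10 added.

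LCN2 was also the 1 member called between CD43- cells of days 12 and 16, with 3.82 (adjusted p = 9.101e-06), beside 10.4% of all genes called in either direction. Replicate 2, the highest of the 3 at 63, was also the highest for SPN (84, 328 and 122) and for MPO (4657, 12840 and 8970). The summed value of 10 azurophil genes was 7301, 26873 and 15291 in these samples, and 84, 529 and 7485 in the day 12 CD43- samples, while LTF stayed at 0, 6 and 2. Whether blood cells left in the CD43- gate contribute to the LCN2 value was not tested. The call was lost with 10 added to each value. Unlike LCN2, SLC22A17, a receptor for the LCN2 protein, was lower in CD43+ than in CD43- cells on day 16. It stood at 280 to 676 in CD43+ and 4328 to 5482 in CD43- cells, a log2 difference of -3.35 (adjusted p = 2.369e-10). Its day 12 CD43- values, 1714, 2792 and 2576, lay below those of day 16, as for LCN2, but that step was not called.

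CAMP encodes the cathelicidin precursor, which is cut to an antimicrobial peptide after release (chr3:48223347-48225491, plus strand). It was listed at 0 or 1 in every sample up to day 6. CD43+ cells held 2, 2 and 2 on day 9, 41, 4 and 4 on day 12 and 12, 16 and 93 on day 16, whereas CD43- cells held 0 in all samples but 1, a 2 on day 16. The CD43+ samples of days 12 and 16 all lay above the CD43- samples of their day. The log2 difference was 3.35 (SE 0.63, adjusted p = 4.054e-05) on day 12 and 4.25 (adjusted p = 1.384e-06) on day 16, and both calls were lost with 10 added. On day 9 the 1.59 (adjusted p = 0.03031) was under the fold threshold. From day 9 to day 12 CD43+ cells differed by 1.76 (adjusted p = 0.0202), also under the threshold, and past it (2.27) without replicate 2 or replicate 3 of day 12. From day 12 to day 16 the difference was 1.44 (adjusted p = 0.06972), and 2.46, a call, without replicate 1 of day 12.

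PRTN3, the proteinase 3 that cuts the cathelicidin precursor, was already called higher in CD43+ cells on day 9. It reached 697, 1677 and 1010 in day 9 CD43+ cells, where it was 0, 0 and 1 in CD43- cells, and 29015, 29015 and 37178 on day 12. FPR2, a receptor for the cathelicidin peptide, was 44, 32 and 40 in day 9 CD43+ cells and 680, 332 and 538 on day 12, with a log2 difference of 3.66 between them (adjusted p = 6.816e-08).

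PGLYRP1 encodes a peptidoglycan recognition protein that damages bacterial walls (chr19:46019153-46023065, minus strand). It was at most 8 in all samples outside the CD43+ cells of days 12 and 16. There it was 246, 14 and 90 on day 12 and 141, 38 and 321 on day 16, beside 0 in all day 12 and at most 4 in day 16 CD43- cells. Both days were free of overlap with CD43- cells, although values within a day ranged widely. The log2 difference was 6.12 (SE 0.81, adjusted p = 2.11e-07) on day 12 and 5.81 (adjusted p = 5.15e-07) on day 16. On days 6 and 9 it was 1.21 (adjusted p = 0.2234) and 1.66 (adjusted p = 0.07528), the latter 2.13 and a call without replicate 2 of the day 9 CD43+ cells. CD43+ cells rose by 3.60 from day 9 to day 12 (adjusted p = 0.0005053), and the difference from day 12 to day 16 was 0.80 (adjusted p = 0.454). The gene overlaps CCDC61 on the other strand. The sources do not say whether reads were counted by strand, so reads of both cannot be told apart. TREM1, the receptor that PGLYRP1 engages on myeloid cells, rose in CD43+ cells from 94, 132 and 78 on day 9 to 1108, 1217 and 1234 on day 12 (3.57, adjusted p = 0.0002389).

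The collagenase and the gelatinase of the set behaved unlike each other. MMP8, neutrophil collagenase (chr11:102711795-102727050, minus strand), did not pass the filter on low values. It was 10, 2 and 0 in day 12 CD43+ cells and 6, 2 and 34 on day 16, at 0 in all CD43- samples of days 9 to 16 and at 2 or less everywhere else. On day 16 the 3 CD43+ samples lay above the CD43- samples, and on day 12 they overlapped. Without the filter its log2 difference was 3.17 on day 16 (adjusted p = 6.017e-05), which is called, and 1.68 on day 12 (adjusted p = 0.01843), which is not.

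MMP9, the gelatinase B for which gelatinase granules are named, is also made by other cells (chr20:46008908-46016561, plus strand). It was present throughout, at 64 in undifferentiated cells, 202, 184 and 208 on day 0, 312, 344 and 202 on day 2 and 314, 416 and 364 on day 4. CD43- cells held 726, 716 and 128 on day 6, 346, 758 and 362 on day 9, 322, 490 and 724 on day 12 and 407, 352 and 380 on day 16. CD43+ cells held 824, 309 and 169 on day 6, 546, 1140 and 894 on day 9, 4608, 1491 and 1066 on day 12 and 350, 280 and 778 on day 16. The sorted cells overlapped on days 6, 9 and 16 and were apart only on day 12.

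The log2 difference of MMP9 was -0.21 (SE 0.57, adjusted p = 0.7907) on day 6, 0.85 (adjusted p = 0.1956) on day 9, 2.0 (adjusted p = 0.00319) on day 12 and 0.16 (adjusted p = 0.8201) on day 16. The day 12 value lies just under the fold threshold and was called when replicate 2 or 3 of either day 12 population was left out (2.01 to 2.43), and it was 1.38 at the lowest over the samples left out. The sign on day 6 and on day 16 also turned on single samples. MMP9 was the 1 member called lower between CD43+ cells of days 12 and 16, by -2.19 (adjusted p = 0.003106), a call lost without replicate 1 of day 12 (-1.57) or replicate 2 of day 16 (-1.89). MMP9 lies on the same bases as the antisense SLC12A5-AS1, whose reads cannot be told apart without strand. TIMP1, which encodes an inhibitor that binds the MMP9 proform, stood at 1696 to 2016 in day 12 and 3268 to 3500 in day 16 CD43+ cells. Its log2 difference between these days, 0.85 (adjusted p = 2.14e-05), was under the fold threshold.

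**Figure D2:**
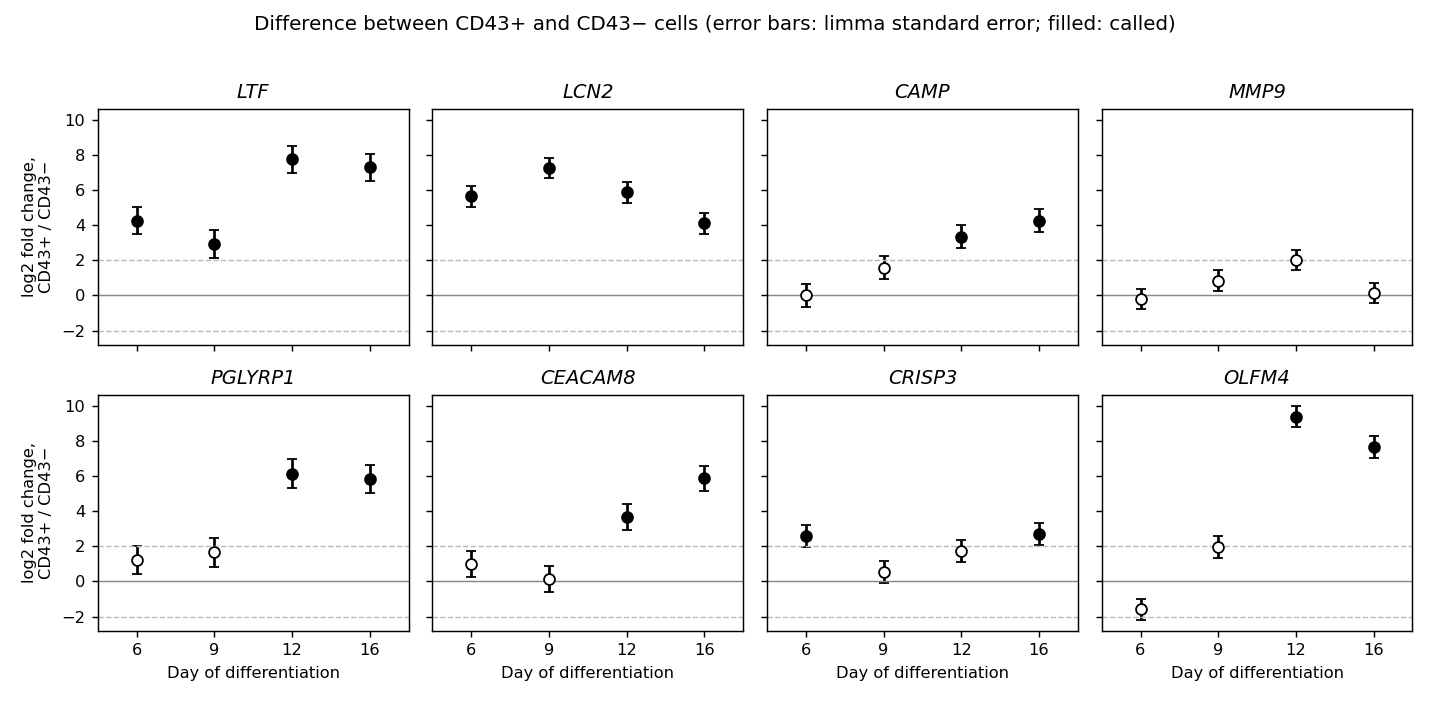
Log2 difference between CD43+ and CD43- cells of the 8 members tested against the day of differentiation, with the limma standard error as error bars, filled points where called and dashed lines at a fold change of 4. LCN2 is highest on day 9 (7.24), OLFM4 passes from -1.59 on day 6 to 9.37 on day 12, and MMP9 stays between -0.21 and 2.0.

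CEACAM8 encodes CD66b, a lipid-anchored adhesion protein stored in specific granules and shown on the surface of granulocytes (chr19:42580241-42595055, minus strand). It was 6 or less in all samples outside the CD43+ cells of days 12 and 16. CD43+ cells held 88, 8 and 44 on day 12 and 122, 36 and 254 on day 16, and CD43- cells at most 2 on those days, with no overlap. The log2 difference was 3.66 (SE 0.72, adjusted p = 6.941e-05) on day 12 and 5.85 (adjusted p = 6.239e-08) on day 16, the former lost as a call with 10 added. CD43+ cells rose by 4.38 from day 9 to day 12 (adjusted p = 1.13e-05). From day 12 to day 16 the difference was 1.67 (adjusted p = 0.06444), and it was called without replicate 1 of day 12 (2.38) or replicate 2 of day 16 (2.42). The gene overlaps the antisense LIPE-AS1, and its CEACAM relatives are alike in sequence, so part of its value may be shared with them.

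Of those relatives, CEACAM6, a binding partner of CEACAM8, was at 0 in all day 9 CD43+ samples and at 267, 103 and 120 on day 12 and 326, 102 and 342 on day 16. CEACAM3, a granulocyte receptor for bacteria, was 28, 6 and 2 on day 12 and 56, 14 and 110 on day 16. CEACAM1, which epithelial and endothelial cells also carry, went the other way on day 16, with 328, 348 and 460 in CD43- and 82, 38 and 236 in CD43+ cells (-2.04, adjusted p = 0.006446).

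CRISP3 encodes a cysteine-rich secretory protein of specific and gelatinase granules (chr6:49727384-49744437, minus strand). Its values were low throughout, with 6, 6 and 10 in the day 4 samples. CD43+ cells held 6, 11 and 4 on day 6, 3, 2 and 2 on day 9, 2, 3 and 2 on day 12 and 16, 2 and 54 on day 16. CD43- cells held 0, 1 and 0 on day 6, 2, 1 and 1 on day 9, 0 in all samples of day 12 and 1, 0 and 4 on day 16. The 2 in the day 16 CD43+ cells lies among the CD43- values of that day. The log2 difference was 2.57 (SE 0.63, adjusted p = 0.001367) on day 6 and 2.71 (adjusted p = 0.0004836) on day 16, and both were lost with 10 added. The day 16 call was also lost without replicate 3 of the CD43+ cells (1.73). From day 12 to day 16 CD43+ cells rose by 2.09 (adjusted p = 0.009339), a call lost without replicate 1 (1.96) or replicate 3 (1.11) of day 16 and with 0.1 or 10 added. A1BG, the plasma protein that binds CRISP3, was not called on any day (0.07, 0.07, -0.08 and -0.04).

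OLFM4 encodes olfactomedin 4, a specific granule glycoprotein found in a subset of neutrophils and also in intestinal crypt cells (chr13:53028759-53052057, plus strand). It had the largest rise of the members. It was at most 3 up to day 2, and 17, 16 and 18 on day 4, a rise of 2.64 from day 2 (adjusted p = 0.001144). With the fall of LTF it made the 2 members called between days 2 and 4, beside 9.5% of all genes, and both calls were lost with 10 added. On day 6 it was 3, 8 and 2 in CD43- cells and 1, 0 and 1 in CD43+ cells, so that the little left was lower in the CD43+ cells, without overlap but under the fold threshold (-1.59, adjusted p = 0.03237).

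CD43+ cells then held 2, 3 and 4 of OLFM4 on day 9, 2024, 622 and 691 on day 12 and 938, 322 and 2913 on day 16. CD43- cells held 0 in all samples of day 9, 0, 0 and 2 on day 12 and 2, 3 and 8 on day 16. The lowest day 12 value in CD43+ cells was thus above every value of all other populations but the day 16 CD43+ cells. The log2 difference was 1.97 (adjusted p = 0.006165) on day 9, under the fold threshold and called (2.16) without replicate 1 of the CD43+ cells. It was 9.37 (SE 0.61, adjusted p = 2.872e-13) on day 12 and 7.65 (adjusted p = 1.771e-11) on day 16. Between days 9 and 12 CD43+ cells rose by 7.93 (adjusted p = 4.202e-11), and between days 12 and 16 they differed by 0.01 (adjusted p = 1). In CD43- cells OLFM4 was the 1 member called from day 6 to day 9, by -2.25 (adjusted p = 0.02536) and beside 1.75% of all genes, a call on values of 8 or less that was lost when replicate 2 of day 6 (-1.79) or any 1 of the day 9 samples (-2.25 each, at higher adjusted p) was left out, or with 10 added.

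The course in the CD43+ cells was counted over the 8 members tested. From day 6 to day 9 none was called, beside 7.53% of all genes in either direction, and 3 were higher at an unadjusted p below 0.05 by limma. With 0.1 added the count was 1. From day 9 to day 12, 4 rose, beside 8.45% of genes, namely LTF, PGLYRP1, CEACAM8 and OLFM4. LCN2 (-0.52), CRISP3 (0), MMP9 (1.24) and CAMP (1.76) were not called. From day 12 to day 16, LCN2 and CRISP3 rose and MMP9 fell, beside 3.79% of genes called higher and 5.26% lower. PGLYRP1, CEACAM8 and, in this last step, CRISP3 passed the filter through the cells in which they are high. These counts are therefore a description. The median over the 8 was 1.02, 2.68 and 1.22 for these steps, and over all genes 0.01, -0.15 and 0.05. No member was called in CD43- cells from day 9 to day 12, beside 7.33% of genes, and with 0.1 added the count was 1.

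Whether the difference between CD43+ and CD43- cells itself changed was tested between neighbouring days. From day 9 to day 12 it grew in 4 of 8 members, beside 4.61% of genes, by 4.83 for LTF (adjusted p = 0.001662), 4.46 for PGLYRP1 (adjusted p = 0.004445), 3.52 for CEACAM8 (adjusted p = 0.01079) and 7.40 for OLFM4 (adjusted p = 3.697e-07). The CEACAM8 call was lost with 0.1 or 10 added. PGLYRP1 and CEACAM8 passed the filter through these day 12 and 16 CD43+ cells, so the count is a description here too. For LCN2 the same change was -1.38 (adjusted p = 0.2329), for CAMP 1.76 (adjusted p = 0.1505) and for MMP9 1.15 (adjusted p = 0.3163). From day 6 to day 9 only OLFM4 was called (3.55, adjusted p = 0.004395), beside 3.21% of genes higher, a call on values of 8 or less that was lost with 10 added (0.78, adjusted p = 0.4169). From day 12 to day 16 none was called by limma, beside 5.03% of genes in either direction, and at an unadjusted p below 0.05 there were 1 higher and 2 lower. Leaving out replicate 1 of the day 12, or replicate 3 of the day 16, CD43+ cells gave 1 call there, and leaving out replicate 2 of the day 16 cells gave 2.

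In CD43+ cells of days 12 and 16 most members had the same replicate on top. On day 12 replicate 1 was the highest of the 3 for 7 of the 9 members, and replicate 2 for LCN2 and CRISP3. On day 16 replicate 3 was the highest for 8 of 9, and replicate 2 the lowest for 7. On day 6 and on day 9 no replicate was the highest for more than 2 members, with 4 and 3 tied. LCN2 ran against the order of days 12 and 16, being lowest in replicate 1 on day 12 (64) and lowest in replicate 3 on day 16 (358). The ratio of the highest to the lowest replicate, each with 1 added, was 15.6 for LTF and 16.5 for PGLYRP1 on day 12, and 2.79 for LCN2. On day 16 it was 10.8 for LTF, 9.02 for OLFM4 and 1.59 for LCN2. The summed value of the 9 members was 8097, 2388 and 2142 on day 12 and 2410, 1398 and 6259 on day 16. Most of the day 12 sums was MMP9 (4608, 1491 and 1066) and OLFM4 (2024, 622 and 691), so they say little of the other members.

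**Figure D3:**
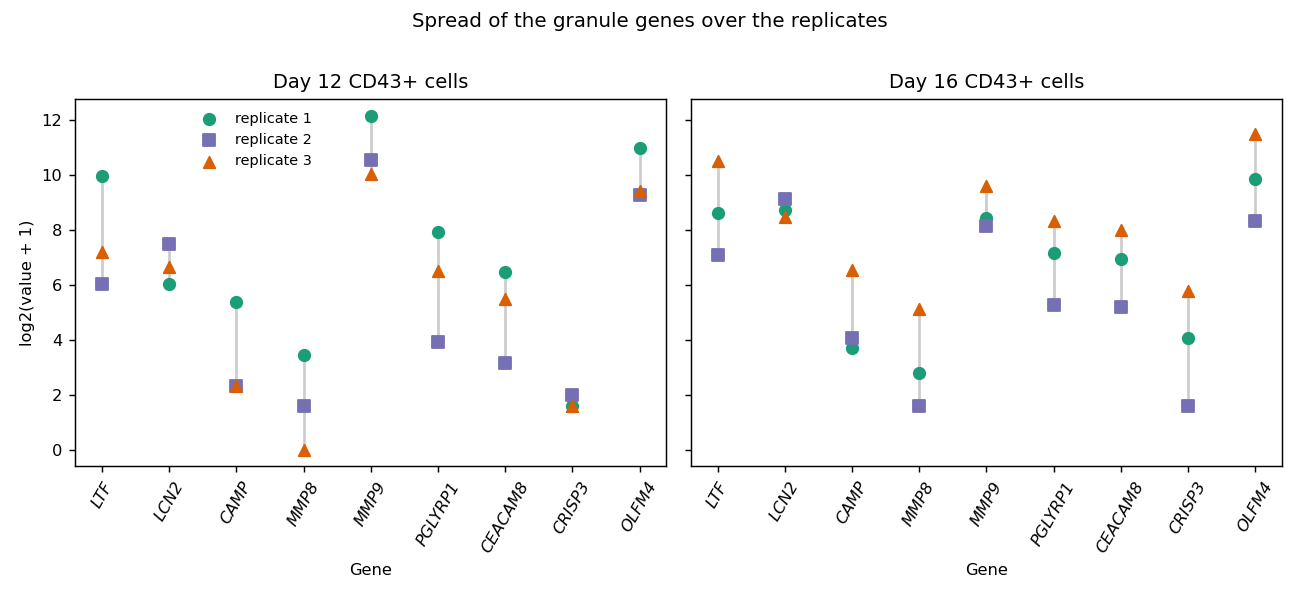
The 9 members in the 3 replicates of CD43+ cells on day 12 (left) and day 16 (right), as log2(value + 1), with a marker for each replicate and a line over their range. Replicate 1 is on top for 7 of 9 members on day 12 and replicate 3 for 8 of 9 on day 16, with LCN2 at the bottom in those same replicates.

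Markers of other cells also varied between these replicates. Most macrophage markers had the same replicate on top as most members, and the eosinophil markers did not on day 12. The summed value of 10 macrophage markers was 102755, 34080 and 27540 in the day 12 CD43+ replicates, highest in replicate 1 for 9 of the 10, and 76357, 71327 and 83347 on day 16, highest in replicate 3 for 9 of the 10. None of the 10 was at 0 there, and CD163 was 17368, 4720 and 2706 on day 12. Of 7 eosinophil markers, 6 were lowest in replicate 1 on day 12, with sums of 32955, 67074 and 66328, and 4 were highest in replicate 3 on day 16, where the sums were 120141, 56455 and 84215, highest in replicate 1. Of 10 azurophil genes, which neutrophil precursors share with monocyte precursors, MPO and LYZ were at 90700, the highest value of the scale, in all these samples. For the other 8 the ratio of the highest to the lowest replicate, with 1 added, was 1.07 to 1.94 on day 12 and 1.67 (PRTN3) to 5.35 (DEFA3) on day 16, where 8 of the 10 were lowest in replicate 2. The part of macrophage or eosinophil content in the members' values was not tested. Epithelial markers, listed because LCN2, MMP9 and OLFM4 are also made by epithelia, summed to 1313 to 2404 in CD43+ cells of days 12 and 16 and to 48038 to 66188 in CD43- cells. Of these 9 markers, 8 were called lower in CD43+ cells on both days, all but CLDN7, beside 14.4% and 13.6% of all genes.

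Other genes of the same granules were counted from a list of 12. On day 12, 9 were called higher in CD43+ cells, and on day 16 also 9, beside 11.8% and 12.2% of all genes. SLPI, QPCT and PTX3 were not called on either day. The list's median log2 difference was 4.36 and 4.69. FCN1, a lectin that monocytes also make, had the largest difference, with 7007, 3770 and 4312 in day 12 CD43+ cells, 6, 6 and 48 in CD43- cells, and 8.50 (adjusted p = 4.718e-14). HP, the haemoglobin-binding haptoglobin, was 3400, 3035 and 3722 on day 12. TCN1, the vitamin B12 carrier of specific granules, was low, at 8, 10 and 6 on day 12 and 22, 6 and 64 on day 16, and called on both days (3.15 and 4.12). From day 9 to day 12, 10 of the 12 rose in CD43+ cells, beside 8.45% of all genes. From day 12 to day 16 only QPCT did (2.67, adjusted p = 0.001429), beside 3.79%. TCN1 and CHIT1 reached a value of 10 only in CD43+ cells of days 12 and 16, and ARG1 and ABCA13 in fewer than 3 other samples. They too passed the filter only through the cells in which they are high, so these counts are a description. In the day 16 CD43+ cells 11 of the 12 were highest in replicate 3.

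Azurophil genes were counted beside the members. On day 6, 3 of 10 were called higher in CD43+ cells (all genes 4.69%), with a list median of 0.10, beside 3 of 8 members and 1.10. On day 9 it was 7 of 10 (all genes 8.65%), with a median of 3.78, beside 2 of 8 and 1.62. On day 12 it was all 10 (all genes 11.8%), with a median of 10.06, beside 6 of 8 and 4.76. On day 16 it was again all 10 (all genes 12.2%), with a median of 5.03, beside 7 of 8 and 5.03. MPO, myeloperoxidase, was 29015, 20412 and 20412 in day 9 CD43+ cells and at 90700, the highest value of the scale, in every CD43+ sample of days 12 and 16, so that a further rise could not be seen. ELANE, neutrophil elastase, was 2, 6 and 1 on day 9 and 1856, 3605 and 3605 on day 12 (9.70, adjusted p = 1.763e-13). In CD43+ cells none of the 10 was called from day 12 to day 16, beside 3.79% of all genes higher and 5.26% lower. In CD43- cells all 10 were called higher in that step, beside 10.4% of all genes in either direction. The change of the CD43 difference was called lower for all 10, with a median of -4.50, beside 5.03% of all genes in either direction. The order of the lists was not tested.

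**Figure D4:**
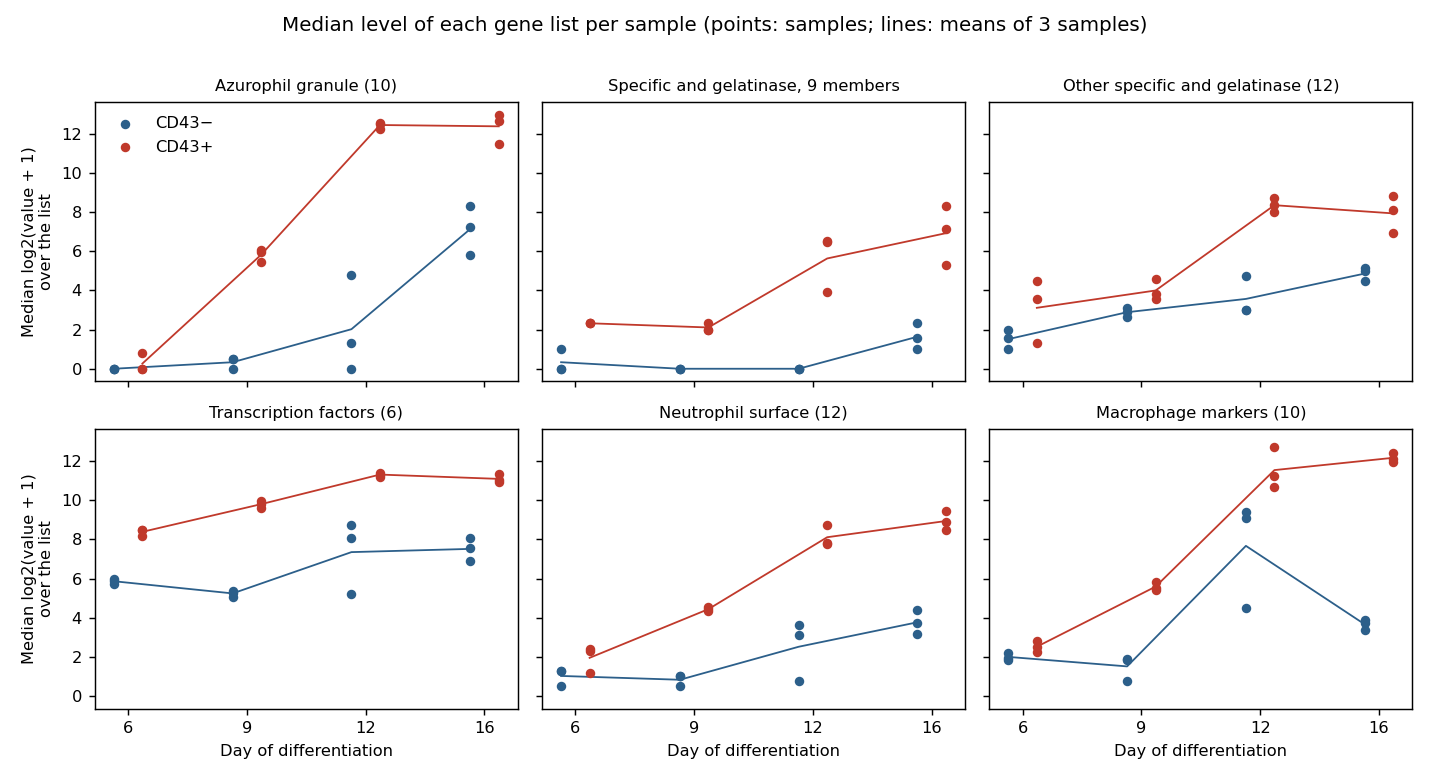
Median of log2(value + 1) over each gene list in each sorted sample (red CD43+, blue CD43-) against the day of differentiation, with lines through the means of 3 samples; the number of genes is in each title. In CD43+ cells the median of the 9 members is 2.32 on day 6, 2.0 to 2.32 on day 9 and 3.91 to 6.51 on day 12, and that of the azurophil genes 0 to 0.79, 5.45 to 6.06 and 12.26 to 12.56. Levels can be followed over days within a list and are not comparable between lists.

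Among the transcription factors, CEBPE rose in CD43+ cells in both steps from day 6 to day 12. It was 9, 5 and 8 in day 6 CD43+ cells, 99, 169 and 120 on day 9, 590, 604 and 680 on day 12 and 512, 426 and 572 on day 16. It rose by 3.97 from day 6 to day 9 (adjusted p = 7.816e-06) and by 2.30 from day 9 to day 12 (adjusted p = 0.001678), and its spread over the replicates of day 12 was narrow beside that of the members (a ratio of 1.15). SPI1, which encodes PU.1, and GFI1, a repressor needed for granulopoiesis, were called higher in CD43+ cells from day 6 on, with 1247 to 1553 and 3047 to 3346 on that day. In CD43+ cells SPI1 was then 2095 to 2264 on day 9 and 5870 to 8050 on days 12 and 16. GFI1 lay below its day 6 values, at 888 to 1110 on day 9 and 760 to 1518 on days 12 and 16. CEBPA followed on day 9 (3.15). CEBPB and CEBPD were high in both fractions on day 12 (-0.20 and -0.32), and of the 6 factors only CEBPD was not called on day 16 (1.66).

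Surface genes of mature neutrophils rose in the same step. Of 12, 10 were called higher in CD43+ cells on each of days 12 and 16, beside 11.8% and 12.2% of all genes. Within these cells 11 rose from day 9 to day 12, all but MME, beside 8.45% of all genes. FCGR3B, the neutrophil CD16, was 4, 0 and 0 on day 9, 802, 470 and 306 on day 12 and 1764, 1035 and 3484 on day 16. CXCR1, a receptor for the chemokine CXCL8, was 38, 13 and 9 on day 12 and 158, 90 and 253 on day 16, a rise of 3.13 (adjusted p = 0.0001601). CR1, the complement receptor 1, and CEACAM3 also rose from day 12 to day 16 (2.07 and 2.43), which makes 3 of 12, beside 3.79% of all genes. CXCR1 and CEACAM3 reached a value of 10 only in CD43+ cells of days 12 and 16. FCGR3B and CEACAM6 reached it in fewer than 3 other samples. They thus passed the filter only through the cells in which they are high, and the counts over this list are a description. Replicate 3 was the highest for 12 of 12 on day 16, and replicate 1 for 10 of 12 on day 12, as for the members. MME (CD10) was lower in CD43+ cells on all 4 days, by -7.40 on day 16. CEACAM1 was also called lower there on days 9 and 16.

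Over all 34 samples the members were compared by Pearson's r of log2(value + 1), a description over samples that fall into 12 populations. CAMP and PGLYRP1 were the most alike pair (0.873), and LTF and PGLYRP1 had 0.840. MMP9 had the lowest values, from 0.0715 with CRISP3 to 0.500 with OLFM4. Of 15193 genes with a mean of at least 100 in at least 1 population, the most like LTF was MARCHF1 (0.925), LCN2 was nearest to ICAM5 (0.964) and CAMP to P2RY13 (0.943). PGLYRP1 was nearest to IL18RAP (0.917), CEACAM8 to LILRA1 (0.913) and OLFM4 to SLC9A8 (0.960). For MMP9 and CRISP3 the nearest genes, RARA (0.770) and SELENOF (0.776), were less close.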

How the data were processed

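RNA-seq of 34 samples was used, in 1 table of 20255 genes. The authors aligned reads (Bowtie2, STAR 2.7, RSEM, bcl2fastq and hg38 are named in the submitters' processing notes), counted tags and normalized them for GC content with EDASeq. Their deposited values are whole numbers but normalized, so they were treated as a normalized score and not as raw counts, and no count model was used. Depth per sample is unknown, and no interval for counting error can be given.

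Values were taken as log2(value + 1). Genes with a value of 10 or more in 3 or more samples (19788) were fitted with limma 3.58.1 (lmFit, eBayes with trend, R 4.3.3) over the 33 replicated samples, 1 term per population. The undifferentiated sample has no replicate and entered no test. Contrasts compared CD43+ with CD43- cells, successive days, and the change of the CD43 difference, and p-values were adjusted by Benjamini-Hochberg over all genes tested. Calls needed an adjusted p below 0.05 and a fold change above 4. The steps were tested on simulated data.

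All 9 members are given. The gene most like a member is that with the highest Pearson r over the 34 samples among genes with a mean of at least 100 in at least 1 population. From other lists, the genes named were some with large differences on days 12 and 16, the exceptions, and genes chosen by role, such as partners. Some genes with larger differences than those named, such as DEFA4 and ORM1 on day 12, are not described. The members and lists were chosen with earlier results of these data known. Gene positions come from GENCODE v29 (GRCh38), promoter letters from RefSeq, and Python 3.11.15 was used for both.

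Replicate numbers stand in the sample titles, which do not say what a number shares. The deviations from the population means of CD43+ and CD43- samples with 1 number were correlated over genes, with r of 0.109 to 0.199 on day 6, 0.0165 to 0.0782 on day 9, 0.0389 to 0.108 on day 12 and -0.0152 to 0.0418 on day 16. These r were highest on day 6. Samples of unlike number were not compared, so whether the numbers pair the samples was not tested. Alternatives were 0.1 or 10 added, no filter, a filter at 100, a replicate block, quantile normalization, scaling by median of ratios, a fit restricted to the populations compared, robust variances, a lower fold threshold of 2, and each replicate left out in turn. A block within day 6 was added after seeing the data.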

Additional observations from a re-analysis of the deposited data

Results flagged for a closer look

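Between days 9 and 12 the CD43+ minus CD43- difference changed by 4.83 (log2) for LTF, 4.46 for PGLYRP1, 3.52 for CEACAM8 and 7.40 for OLFM4, each past the threshold in a test of the change itself. Between days 6 and 9 that of OLFM4 changed by 3.55 in the same test. The day 9 values behind these changes lie near 0 in both fractions (at most 10 for LTF and 4 for OLFM4), so their size depends on the 1 added to each value. In day 12 CD43+ cells the ratio of the highest to the lowest replicate, each with 1 added, was 15.6 for LTF and 16.5 for PGLYRP1.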

How the results depend on the processing

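Of 161 counts of members called under alternatives other than leaving out a sample, 140 were within 1.5 times the count reported, and of 684 values of single members 651 kept their sign and their side of the threshold, 21 lost a call and 12 gained one. Quantile normalization is in these tallies and could change little, since the sorted values were already the same in all samples. It gave 0.998 to 1.001 times the calls over all genes. Only counts outside 1.5 times are listed below. Within that bound, 10 added cost CAMP and CEACAM8 their day 12 call and CAMP and CRISP3 their day 16 call. With 10 added to each value, the count of members called was 1 for the CD43 difference of day 6 and 1 for that of day 9, 1 for CD43+ cells from day 12 to day 16, 0 for CD43- cells between days 6 and 9 and 0 between days 12 and 16, 0 between days 0 and 2, 0 between days 2 and 4, 1 between day 4 and day 6 CD43+ cells and 0 for the day 6 to day 9 change in the CD43 difference. With 0.1 added it was 4 for the difference of day 9, 1 for CD43+ cells from day 6 to day 9, 1 from day 12 to day 16, and in CD43- cells 1 between days 9 and 12 and 4 between days 12 and 16. At a fold change above 2 it was 4 for day 9 and 2 for CD43- cells from day 12 to day 16. Fitting only the populations compared gave 1 for day 9, 0 for CD43- cells from day 6 to day 9, 1 from day 2 to day 4 and 0 for the change from day 6 to day 9. With a filter at 100, under which 5 members are tested, it was 4 for day 16. Over all genes and 16 comparisons, the number called was 1.69 to 2.44 times that reported at a fold change above 2, 0.265 to 0.697 times with 10 added, 0.392 to 0.788 times with the filter at 100, 0.156 to 0.907 times with only the populations compared, and 0.857 to 1.20 times under each of the others. For the other moves the cause was not tested. The replicate block, over all samples or within day 6, where samples of 1 number were most alike, left every count of members called as reported, with 3 on day 6. Median-of-ratios size factors lay between 0.907 and 1.13.

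Leaving out 1 sample kept 105 of 114 counts within 1.5 times the count reported. In CD43- cells the others ranged from 0 to 1 between days 6 and 9 and 1 to 3 between days 12 and 16. For the day 12 to day 16 change in the CD43 difference they ranged from 0 to 2. Counts within that bound also moved. Those of the CD43 difference ranged from 2 to 3 on day 9 and 6 to 7 on days 12 and 16. Those of CD43+ cells ranged from 4 to 5 between days 9 and 12 and 2 to 4 between days 12 and 16. From day 4 to day 6 CD43+ cells the range was 3 to 4. Of 492 values of single members 458 kept their sign and call, 11 lost a call, 12 gained one and 11 turned sign. The sign turned for MMP9 on day 6 (-1.04 to 0.31) and day 16 (-0.28 to 0.46), CEACAM8 on day 9 (-0.53 to 0.67), and PGLYRP1 (-0.31 to 1.71) and OLFM4 (-0.80 to 0.79) in CD43+ cells from day 12 to day 16, of which none was called. Depth is unknown, so an entry of 0 sets no limit on a level.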
